A study of Mus musculus with 48 samples.

Results

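The genes described here carry newly made proteins into the endoplasmic reticulum (ER) and on to the Golgi, and their transcript levels were followed in mouse liver over 2 circadian cycles. The 60 genes were chosen by name for their part in the signal recognition particle, the translocon, the vesicle coats COPII and COPI, the cargo receptors and the SNAREs. Of these, 59 were read, each through its probe set of highest mean intensity among those assigned to a single gene symbol, out of 18194 genes read in this way. Sec61g was matched only by a probe set shared with 2 other symbols and was not read. The list also holds genes that work beside these complexes, such as Yipf5 and Cog3. Earlier results of these data were known when the genes were chosen, so shares of called members describe this list and are no independent test.

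A protein bound for secretion is recognised by the signal recognition particle as it leaves the ribosome, handed to the SRP receptor and threaded through the Sec61 channel, where the signal peptidase removes its leading peptide. COPII coats bud vesicles from the ER, COPI coats return escaped ER proteins and cargo receptors from the Golgi, and SNAREs fuse the vesicles with their target membrane. The hepatocyte uses this route for albumin, apolipoproteins and most other plasma proteins.

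Male C57BL/6J mice, 6 weeks old, were entrained to 12 h of light and 12 h of darkness for a week and then kept in constant darkness. Livers of 3 to 5 mice were pooled at every hour from circadian time (CT) 18 to CT65, and each of the 48 pools was read on 1 Affymetrix Mouse Genome array. Subjective dawn falls at CT0 and subjective dusk at CT12. The first cycle runs from CT18 to CT41 and the second from CT42 to CT65. All pools belong to 1 group of untreated wild-type livers and no hour has a replicate. The tests therefore measure the spread of single pools around the fitted curves, with a precision set by how many arrays there are. In whole liver a change in the number of cells of a type and a change in RNA per cell cannot be told apart.

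Array medians lay between 95.2 and 110.9 on the intensity scale. The pools of CT60 to CT65 stood apart, with a mean of their median correlations with the other arrays of 0.989, against 0.994 in the remaining pools, and CT61 was lowest at 0.984. Markers of hepatocytes were abundant in every pool, the intensities of 5 of them summing to between 2971356 and 3256984. The summed intensity of 6 pancreatic acinar markers was 355127 at CT25 and 110924 at CT46, against a median of 451 over all pools. Of the 59 members, 42 were at CT25 below and 17 above the mean of their values at CT24 and CT26, with a median difference of -0.08 on the log2 scale. Of 51 markers of 11 cell types, a rhythm of 12 h was called by limma in Ighm, 1 of 5 plasma cell markers, and in 0 of the other 46 (7 at an unadjusted p under 0.05).

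Promoter sequences of 49 of the 60 genes were at hand in RefSeq (GRCm38.p6), reaching from 250 bases before to 50 bases after a transcription start. They are shown for the genes that held the core of the unfolded protein response element, TGACGTGG on either strand, a sequence known from the binding of XBP1 and ATF6. This core was found in 8 of 49 genes (16.3%), against 193 of 27025 genes (0.714%) with a promoter in the same table. Among members called with a 12 h rhythm it was present in Stx5a alone, 1 of 14 with a promoter, and among the other measured members in 7 of 34. The promoters of Stx5a, a Golgi SNARE, and of Sec24d, a cargo-binding subunit of COPII, are shown whole because these 2 had the smallest p of the 12 h term among the 8, and capitals mark the core or its reverse complement CCACGTCA.
Stx5a (chr19:8741174-8741473, forward strand): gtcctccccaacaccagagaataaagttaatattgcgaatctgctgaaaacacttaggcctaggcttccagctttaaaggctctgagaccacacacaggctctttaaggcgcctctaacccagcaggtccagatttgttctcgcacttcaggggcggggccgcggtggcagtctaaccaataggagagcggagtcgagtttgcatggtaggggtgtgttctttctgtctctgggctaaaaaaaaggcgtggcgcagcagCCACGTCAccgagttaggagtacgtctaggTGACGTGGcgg
Sec24d (chr3:123267246-123267545, forward strand): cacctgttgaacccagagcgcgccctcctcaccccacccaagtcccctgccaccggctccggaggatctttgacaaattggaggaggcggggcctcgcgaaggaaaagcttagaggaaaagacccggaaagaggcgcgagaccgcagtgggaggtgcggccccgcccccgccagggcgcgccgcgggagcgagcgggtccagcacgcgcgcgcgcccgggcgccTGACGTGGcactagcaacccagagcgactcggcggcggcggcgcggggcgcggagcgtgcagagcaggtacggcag
The other 6 genes are shown by 40 bases around the core, read along the strand of the gene.
Sec23a (chr12:59011988-59012027, reverse strand): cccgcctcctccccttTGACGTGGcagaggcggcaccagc
Sec16b (chr1:157506736-157506775, forward strand): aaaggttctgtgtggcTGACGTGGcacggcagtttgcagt
Copb2 (chr9:98563708-98563747, forward strand): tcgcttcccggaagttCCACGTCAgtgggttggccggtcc
Copb1 (chr7:114254685-114254724, reverse strand): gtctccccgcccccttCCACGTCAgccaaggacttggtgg
Arf1 (chr11:59228223-59228262, reverse strand): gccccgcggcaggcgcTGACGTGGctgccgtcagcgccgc
Kdelr3 (chr15:79516362-79516401, forward strand): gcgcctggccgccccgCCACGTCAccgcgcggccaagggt
In Sec24d, Sec16b, Copb2, Copb1 and Kdelr3 the core began between 7 and 44 bases before the start, and in Sec23a it began 7 bases after it. Arf1 held it from base 22 after a start, which lies 84 bases before another of its starts. Stx5a held it on both strands, from bases 10 and 40 after the start.

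The ER stress element (CCAAT, 9 bases of any kind and CCACG, letters that also lie in CCACGTCA) and its variant ERSE-II (ATTGG, 1 base of any kind and CCACG) were searched on both strands as well. Neither was found in the 49 genes, and they occurred in 0.137% and 0.0444% of all genes. The cyclic AMP response element TGACGTCA, which shares its first 6 letters with the core above, was found in Cope and Gosr2 (4.08%, against 2.03% of all genes). The E-box CACGTG was found in Mcfd2, Sar1a, Sec62, Ssr1 and Tmed10 (10.2%, against 8.09%). The ETS motif CCGGAAG was found in 15 genes (30.6%, against 9.93%). Among members called with a 12 h rhythm it was present in Cog3, Bet1, Gosr2 and Arfgap2, 4 of 14 with a promoter. Among the other measured members it was present in 11 of 34. Such matches describe letters in these windows and no binding was measured.

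Log2 intensities were fitted in limma with a linear trend and with cosine and sine pairs at 24, 12 and 8 h. The amplitude of a term is the height of its fitted wave above the mean, so that the fitted peak stands 2 amplitudes above the fitted trough. A term was called at a Benjamini-Hochberg adjusted p under 0.05 over all 45101 probe sets. A 12 h term was called in 20 of the 59 members, against 7.13% of all genes and 17.1% of the 6636 genes with a mean intensity of 1000 or more. Of the members, 56 were that bright, and 19 of these 56 were called. The median 12 h amplitude was 0.07 over the 59 members, 0.04 over all genes and 0.08 over the bright ones. The middle member was thus not set apart from other bright genes. The calls did not follow amplitude alone. Arcn1 was called at 0.08 ± 0.02 (standard error), and Sec24d at 0.25 ± 0.07 was not.

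A 24 h term was called in 36 members, against 52.7% of all genes and 69.7% of the bright ones, a share of the members near those backgrounds. Both terms were called in 12 members, the 12 h term alone in 8, the 24 h term alone in 24, and neither in 15. Of all 18194 genes these counts were 1078, 220, 8519 and 8377, and of the 6636 bright ones 960, 177, 3665 and 1834. In 21 members the 12 h amplitude was larger than the 24 h amplitude, as in 3286 of all genes and 1281 of the bright ones. Of the 38 members with several probe sets, at least 1 of the others lay on the other side of the threshold in 15 at 12 h and in 23 at 24 h, so each call holds for the probe set used. An 8 h term was called in 7 members (Srp68, Sec23b, Sec24c, Tmed3, Gosr2, Stx5a and Arfgap3), against 2.13% of all genes and 5.14% of the bright ones.

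**Figure D1:**
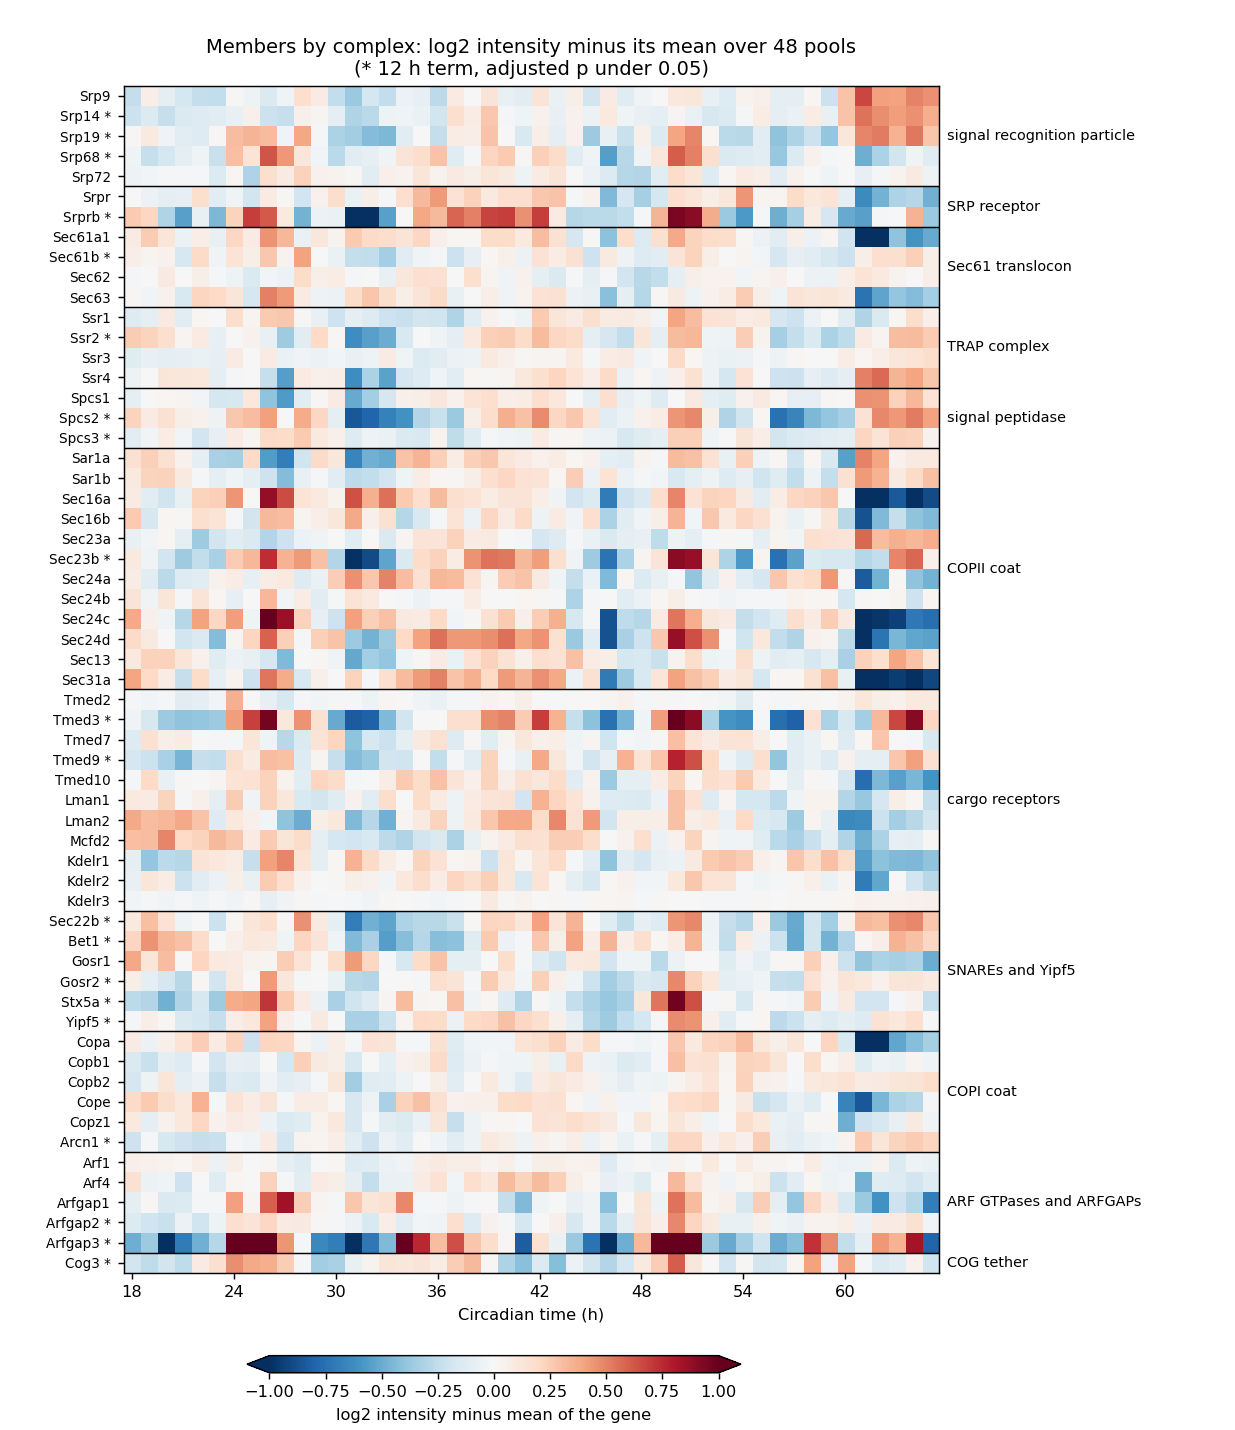
Log2 intensity of each of the 59 members minus its own mean, by circadian time in hours (columns, 48 pools) and complex (rows), on a colour scale that ends at 1 in either direction. Members marked * had a 12 h term. Rows such as Sec23b and Tmed3 were high near CT26, CT39 to CT42 and CT50, while Sec31a, Sec24c, Sec16a and Sec61a1 were lowest at CT61.

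Fisher's G-test, which asks whether 1 of 23 Fourier frequencies holds an outsized share of the variance, placed 13 members in a class of about 12 h (Storey q under 0.05, periods between 10 and 14 h), against 1.01% of all genes and 2.4% of the bright ones. They were Srp19, Srprb, Spcs3, Sec23b, Tmed3, Tmed9, Sec22b, Gosr2, Stx5a, Yipf5, Arfgap2, Arfgap3 and Cog3, all of which also had a 12 h term in limma. In the class of about 24 h were 10 members (16.9%), against 14.7% of all genes and 32.8% of the bright ones: Ssr1, Spcs1, Spcs2, Sar1b, Sec23a, Sec13, Mcfd2, Kdelr1, Bet1 and Arfgap1. Srp68 was placed at 8 h and Arf1 at 16 h.

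The 12 h terms of the 20 members peaked at similar hours. All 20 had their peaks between 0 and 6 h after subjective dawn and dusk, 12 of them in the first 3 h, whereas of the 1298 genes with a 12 h term 53.2% peaked between 0 and 6 h and 35.1% between 0 and 3 h. The median peak was 2.66 h after dawn and dusk, 13 members lay within 1 h of it and 19 within 2 h. Cog3, a subunit of the COG tether of the Golgi, was earliest at 0.62 ± 0.26 h (standard error), and Bet1, a SNARE, was latest at 4.62 ± 0.47 h. Most neighbours in the order of peak times differed by less than their standard errors. A fitted 12 h term repeats alike after dawn and dusk and does not show that a gene rose at both. In Stx5a the mean intensity was 11200 in CT36 to CT41 and 10730 in CT60 to CT65, near 10980 and 11410 in the hours just before. In Sec23b it was 12320 and 10090, above 7058 and 7518 in the hours before.

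**Figure D2:**
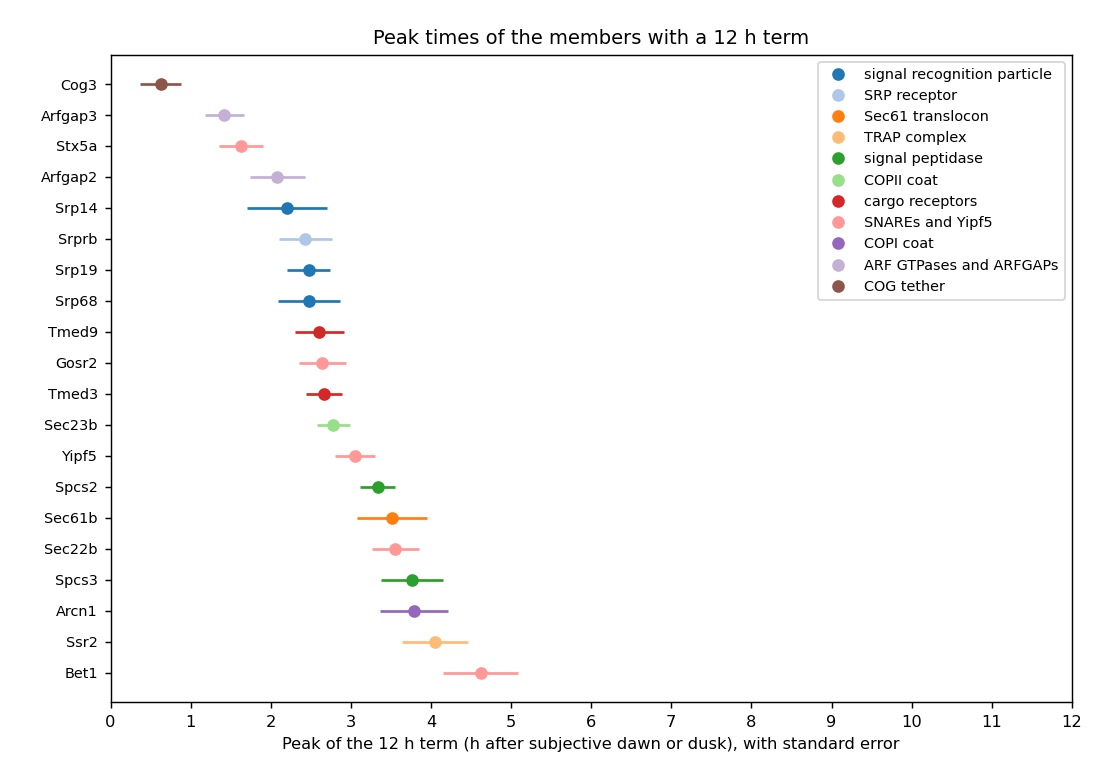
Peak of the 12 h term in hours after subjective dawn or dusk (x axis, the whole 12 h period) for the 20 members with such a term, with standard errors as bars and colours by complex. All points lie between 0.62 and 4.62 h, with Cog3 and Arfgap3 first and Ssr2 and Bet1 last.

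The signal recognition particle binds the signal peptide and slows translation. Its subunits Srp19, Srp68 and Srp14 had a 12 h term, and Srp9 and Srp72 did not pass. Srp19, which joins the particle's RNA early in its assembly, ran from 7876 at CT33 over a median of 10684 to 15553 at CT64. Its 8 highest pools lay at CT25, CT28, CT50, CT51 and CT61 to CT64 and its lowest at CT32 and CT33, with a 12 h amplitude of 0.27 ± 0.04 (adjusted p = 2.58e-05). Srp68, which pairs with Srp72, ran from 3693 at CT46 over 5265 to 8334 at CT26, with an amplitude of 0.17 ± 0.03 (adjusted p = 0.00483). Its 5 highest pools, CT24, CT26, CT27, CT50 and CT51, all followed a dawn. Srp14 and Srp9 form the Alu domain that holds back elongation. Srp14 ran from 29225 at CT31 over 34679 to 52533 at CT61 and stood just inside the threshold (0.09 ± 0.02, adjusted p = 0.0496). It lost the call in 31 of 48 fits with 1 pool left out. Srp9, just outside, ran from 37545 at CT31 over 46927 to 77220 at CT61 (0.12 ± 0.03, adjusted p = 0.0583). Both were highest in the pools of CT60 to CT65, and each had a 24 h term over all pools (adjusted p = 0.00106 for Srp14 and 0.0429 for Srp9) that did not pass without these 6 pools (0.106 and 0.437). Srp72 ran from 24270 to 35261 and passed in neither term. Second probe sets of Srp9 and Srp72 did have a 12 h term (adjusted p = 0.0016 and 0.00697).

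The SRP receptor docks the particle at the ER membrane. Its membrane-anchoring subunit Srprb ran from 620 at CT32 over a median of 1570 to 3053 at CT50. Its 7 highest pools were CT25, CT26, CT39, CT40, CT42, CT50 and CT51, and the 12 h amplitude of 0.42 ± 0.07 gave a fitted peak 1.79-fold above the trough (adjusted p = 0.000672). The partner subunit Srpr ran from 15633 at CT61 over 24949 to 32972 at CT54 and had neither term (12 h amplitude 0.06 ± 0.04, adjusted p = 0.909). Without CT60 to CT65 a 24 h term was called in both, with 0.15 in Srpr (adjusted p = 0.00426) and 0.30 in Srprb (0.00308).

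In the Sec61 translocon the 24 h term was called in 4 of 4 members and the 12 h term in Sec61b alone. Sec61b, a small subunit of the channel, ran from 27901 at CT33 over 35658 to 46630 at CT28, with a 12 h amplitude of 0.11 ± 0.02 (adjusted p = 0.0143) that did not pass without CT60 to CT65 (adjusted p = 0.18). The channel subunit Sec61a1 ran from 23177 at CT61 over 59375 to 76900 at CT26. Its 4 lowest pools were CT61, CT62, CT64 and CT65, and its 24 h amplitude of 0.15 ± 0.05 (adjusted p = 0.032) was 0.03 without CT60 to CT65 (adjusted p = 0.607). The dimmest probe set of Sec61a1 had a 12 h term (adjusted p = 0.0263), and its others did not. Sec62 and Sec63, which serve proteins that arrive after their synthesis, had 24 h amplitudes of 0.09 ± 0.02 and 0.13 ± 0.04 (adjusted p = 0.000173 and 0.0124). Sec62 peaked at 11.5 h and Sec63 at 6.39 h after dawn, and the term of Sec63 did not pass without CT60 to CT65 (adjusted p = 0.108).

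The TRAP complex, which sits beside the channel and helps some signal peptides to insert, also had a 24 h term in 4 of 4 members. All 4 peaked in the late subjective night, between 19.1 and 23.7 h after dawn. The largest fitted changes were 1.30-fold in Ssr2 and Ssr4 and 1.28-fold in Ssr1 (adjusted p = 0.000188, 4.91e-05 and 2.86e-07), and Ssr3, the flattest, ran only from 59060 to 74012 (1.05-fold, adjusted p = 0.0369, and 0.126 without CT60 to CT65). Ssr2 had a 12 h term, and so did a dimmer probe set each of Ssr1 and Ssr4 (adjusted p = 0.00858 and 0.0263). The brightest probe sets of these genes did not pass (0.195 and 0.624). Nor did the remaining ones of Ssr1 (0.393 and 0.769) or the dimmest of Ssr4. Ssr2 ran from 5984 at CT31 over 9312 to 11542 at CT51, with its low pools at CT31 to CT33 and an amplitude of 0.16 ± 0.03 (adjusted p = 0.00798).

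The signal peptidase cuts the signal peptide inside the ER. Its subunit Spcs2 ran from 17305 at CT31 over 32563 to 44843 at CT64. It had both terms at nearly the same size, 0.31 ± 0.04 at 12 h (adjusted p = 8.22e-07) and 0.36 ± 0.04 at 24 h (adjusted p = 2.33e-09), and its 8 lowest pools came once in each cycle, at CT31 to CT34 and CT56 to CT59. Spcs3, which supports the enzyme's activity, had a 12 h amplitude of 0.11 ± 0.02 (14434 at CT37 to 20658 at CT28, adjusted p = 0.004). Spcs1 had only a 24 h term, peaking 16.3 h after dawn (0.14 ± 0.03, adjusted p = 0.000899).

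In the COPII coat the 12 h term was called in 1 of 12 members and the 24 h term in 7. The exception was Sec23b, which like its paralog Sec23a belongs to the inner coat and stimulates the GTPase Sar1. Sec23b ran from 4849 at CT31 over a median of 9804 to 17977 at CT50. Its 13 highest pools formed 4 blocks, at CT25 to CT28, CT38 to CT42, CT50 and CT51, and CT63 and CT64, with an amplitude of 0.46 ± 0.05, a fitted 1.90-fold change and a peak at 2.78 ± 0.20 h (adjusted p = 1.49e-07). Sec24d, a cargo-binding subunit, ran from 3557 at CT61 over 8272 to 14864 at CT50 and stood just outside the threshold (0.25 ± 0.07, adjusted p = 0.0685). Without CT60 to CT65 its amplitude was 0.38 (adjusted p = 7.54e-06).

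The GTPase Sar1b and its paralog Sar1a start the assembly of the coat. Sar1b ran from 101138 at CT27 over 133787 to 183423 at CT61 and peaked 17.2 h after dawn in its 24 h term (0.19 ± 0.02, adjusted p = 3.06e-08). Sar1a passed in neither term (24 h amplitude 0.13 ± 0.05, adjusted p = 0.105). Sec16a and Sec16b mark the ER exit sites. Sec16a ran from 2086 at CT61 over 7475 to 12702 at CT26, with a 24 h amplitude of 0.34 ± 0.07 (adjusted p = 0.000746) that peaked 5.90 h after dawn. Its 5 lowest pools were CT61 to CT65, as were those of Sec31a (2254 at CT61 to 10110 at CT26), an outer coat subunit, while in Sec24c (2809 at CT61 to 18373 at CT26) CT46 lay among them. The 24 h term of Sec24c (0.21 ± 0.07, adjusted p = 0.0315) did not pass without CT60 to CT65 (adjusted p = 0.396), nor did that of Sec16b (0.0366 and 0.684). Sec31a passed in neither term over all pools and had a 24 h term without them (adjusted p = 0.202 and 0.00623). Sec23a, Sec24a and the outer coat subunit Sec13 had 24 h amplitudes of 0.15 ± 0.02, 0.22 ± 0.04 and 0.17 ± 0.03, with peaks at 13.4, 9.75 and 18.1 h after dawn. Sec24b ran only from 1290 to 2003 and passed in neither term.

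Among the cargo receptors the 12 h term was called in Tmed3 and Tmed9, 2 of 11. Both belong to the p24 family, which packs proteins into the vesicles. Tmed3 ran from 2967 at CT31 over 5181 to 13497 at CT50, with an amplitude of 0.52 ± 0.06 and a fitted change of 2.05-fold (adjusted p = 9.9e-07). Its 9 highest pools were CT25, CT26, CT39, CT40, CT42, CT50, CT51, CT63 and CT64. Tmed9 ran from 16475 at CT21 over 21796 to 38596 at CT50 (0.20 ± 0.03, adjusted p = 0.000184). Their relatives Tmed7 and Tmed10 had 12 h amplitudes of 0.03 ± 0.03 and 0.02 ± 0.04 (adjusted p = 0.957 and 1.0).

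Lman1 and Mcfd2 together carry coagulation factors V and VIII, and Lman2 is another lectin of the pathway. Mcfd2 ran from 30467 at CT61 over 42877 to 59901 at CT20 and had the smallest p of the 24 h term of all members (0.23 ± 0.02, peak at 21.9 h, adjusted p = 6.61e-11). Its partner Lman1 had neither term (24 h amplitude 0.05 ± 0.03, adjusted p = 0.331) on its brightest probe set, while 3 of its 4 others had a 24 h term (adjusted p = 0.01, 0.0126 and 0.049). Lman2 peaked at 20.1 h (0.19 ± 0.05, adjusted p = 0.0123). Of the KDEL receptors, which return ER proteins from the Golgi, Kdelr1 peaked 6.52 h after dawn (0.20 ± 0.04, adjusted p = 0.000925) and Kdelr2 passed in neither term, but at 12 h without CT60 to CT65 (0.09, adjusted p = 0.0233). Kdelr3, at 52.0 to 58.6, and Tmed2, at 72.2 to 103.2, lay near the background in every pool. Even so, Kdelr3 is counted among the 36 members with a 24 h term (amplitude 0.015, adjusted p = 0.0363) and the 6 higher at dusk. For Tmed2 the brighter probe sets are shared with another symbol and were not used.

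The SNAREs of this step and Yipf5, a membrane protein that shuttles between ER and Golgi, had a 12 h term in 5 of 6 genes, the largest share among the complexes with more than 1 gene. Stx5a, the syntaxin of the early Golgi, ran from 8124 at CT20 over 11190 to 22172 at CT50. Its 6 highest pools all followed a dawn, at CT24 to CT26 and CT49 to CT51, with an amplitude of 0.24 ± 0.03 (adjusted p = 3.27e-05). Sec22b, the SNARE on the vesicle, ran from 7040 at CT31 over 11454 to 15874 at CT64 (0.23 ± 0.04, adjusted p = 9.22e-05). Its 5 lowest pools were CT31 to CT33, CT56 and CT57, and it had a 24 h term of equal size (0.23 ± 0.04). Yipf5 ran from 8837 at CT46 over 11248 to 15692 at CT50 (0.20 ± 0.03, adjusted p = 7.78e-06). Gosr2, a Golgi SNARE, ran from 4098 at CT46 over 5211 to 7256 at CT50 (0.16 ± 0.03, adjusted p = 0.000118). In both the highest pool followed the lowest by 4 h. Bet1, the partner of Sec22b and Stx5a in fusion, ran from 5206 at CT33 over 7931 to 10403 at CT19, and its 24 h amplitude of 0.30 ± 0.03 exceeded its 12 h amplitude of 0.13 ± 0.03 (adjusted p = 4.98e-09 and 0.0232). Its 12 h term did not pass without CT60 to CT65 (adjusted p = 0.111). Second probe sets of Bet1 and Gosr2 did not pass at 12 h (adjusted p = 0.704 and 0.636). Those of Sec22b and Stx5a did (0.00036 and 0.0266), as did the brighter of the others of Yipf5 (9.82e-08). Gosr1 alone passed in neither term (5293 in the median, 12 h amplitude 0.06 ± 0.03, adjusted p = 0.634).

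**Figure D3:**
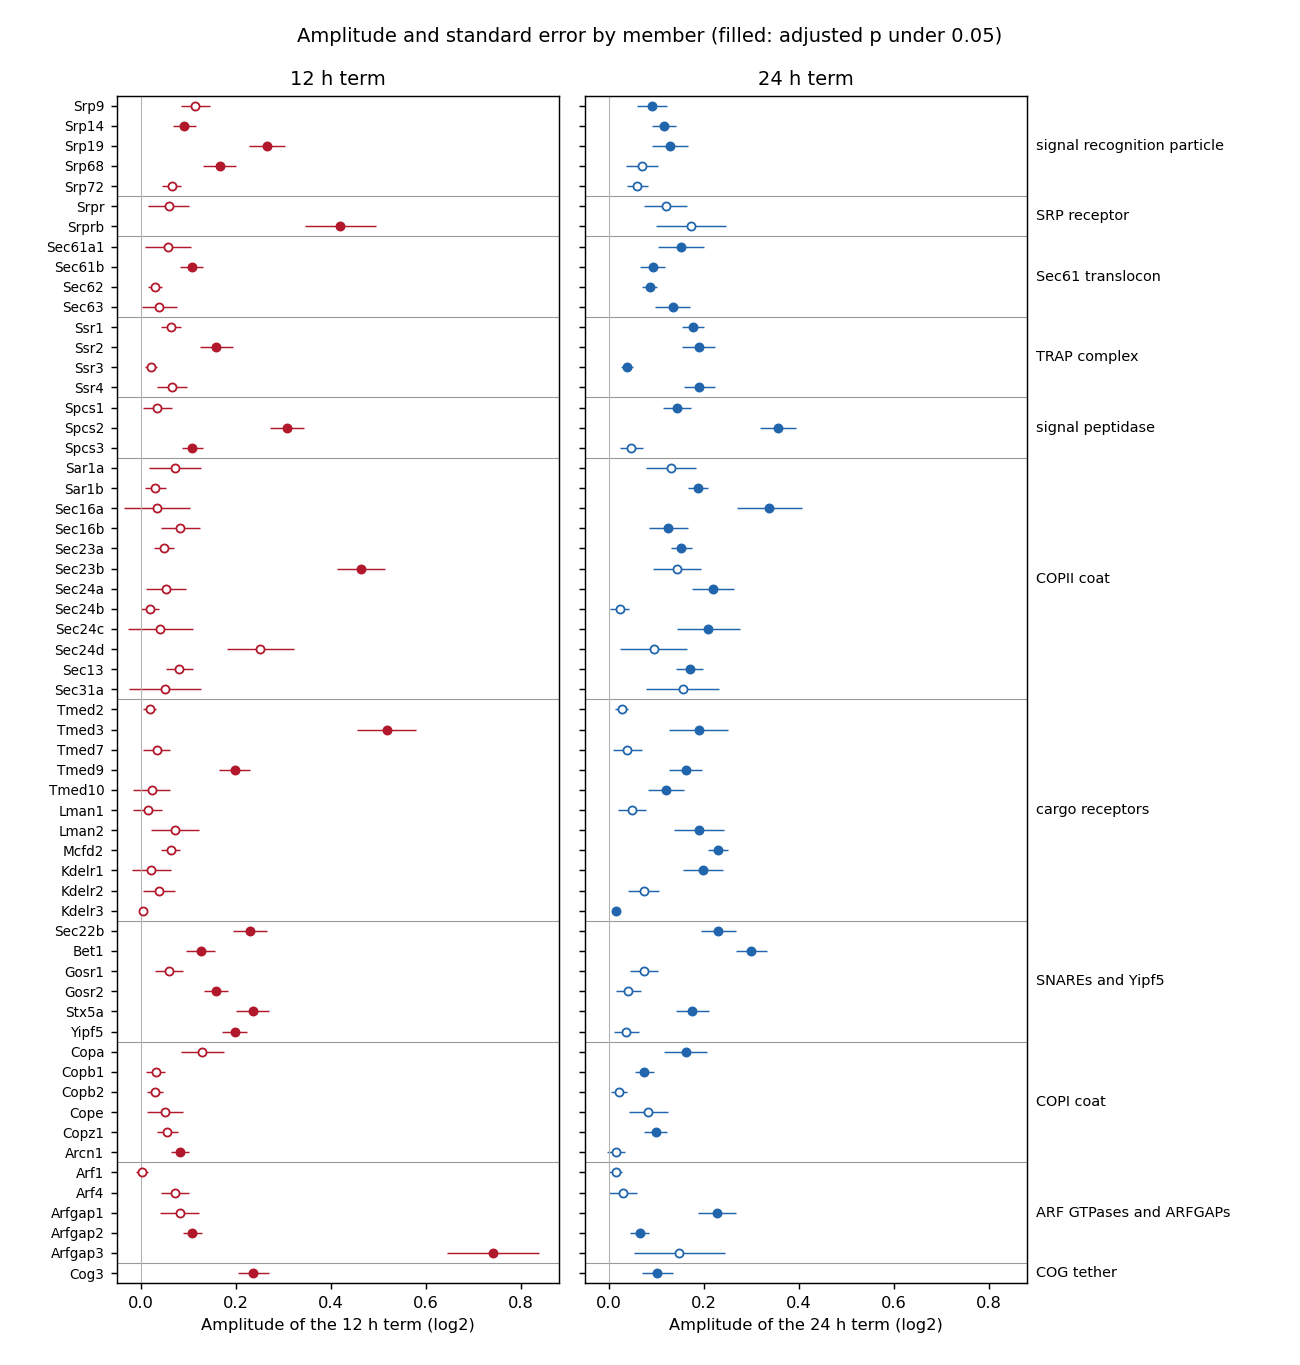
Amplitudes of the 12 h term (left) and the 24 h term (right) on the log2 scale for the 59 members by complex, with standard errors as bars and filled points where the adjusted p was under 0.05. Arfgap3, Tmed3, Sec23b and Srprb reach 0.42 to 0.74 at 12 h, while no member exceeds 0.36 at 24 h.

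In the COPI coat 1 of 6 members had a 12 h term and 3 had a 24 h term. Arcn1, the delta subunit, ran from 16081 at CT22 over 18659 to 22591 at CT61 with a small 12 h amplitude of 0.08 ± 0.02 (adjusted p = 0.0107) that did not pass without CT60 to CT65 (adjusted p = 0.084). The other probe sets of Arcn1 did not pass at 12 h (adjusted p = 0.832 and 0.917), and the dimmest had a 24 h term (adjusted p = 7.45e-05). The alpha subunit Copa ran from 11429 at CT62 over 24792 to 29355 at CT54. Its 5 lowest pools were CT61 to CT65, and its 24 h term (0.16 ± 0.05, adjusted p = 0.0144) did not pass without CT60 to CT65 (adjusted p = 0.329). A second, dimmer probe set of Copa had a 12 h term (0.33, adjusted p = 0.0323). Copb1 and Copz1, the beta and zeta subunits, had small 24 h amplitudes of 0.07 ± 0.02 and 0.10 ± 0.02. Without CT60 to CT65 the term of Copb1 did not pass (adjusted p = 0.139) and that of Copz1 did (0.00641). Copb2 and Cope passed in neither term.

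The ARF GTPases recruit the COPI coat and the ARFGAPs switch them off. Arf1 was the flattest bright member, from 49229 at CT63 over 54691 to 57857 at CT52, with a 12 h amplitude of 0.00 ± 0.01 (adjusted p = 1.0), and Arf4 had neither term (12 h adjusted p = 0.397, and 0.00312 without CT60 to CT65). Arfgap3 had the largest 12 h amplitude of all 59 members. It ran from 155 at CT31 over a median of 390 to 1864 at CT50, a 12.1-fold range. Its 7 highest pools were CT24 to CT26, CT34 and CT49 to CT51, and the amplitude of 0.74 ± 0.10 gave a fitted 2.80-fold change peaking at 1.42 ± 0.25 h (adjusted p = 5.44e-06). Arfgap2, its close relative, ran from 29035 at CT46 over 34599 to 48894 at CT50 and had a smaller 12 h amplitude of 0.11 ± 0.02 (adjusted p = 0.00104), although a second, dimmer probe set of it did not pass (0.03, adjusted p = 0.979). Arfgap1 had a 24 h term peaking 4.83 h after dawn (0.23 ± 0.04, adjusted p = 0.000102) and a 12 h amplitude of 0.08 ± 0.04 (adjusted p = 0.637). Cog3 ran from 1659 at CT43 over 2216 to 3386 at CT50, with a 12 h amplitude of 0.24 ± 0.03 (adjusted p = 8.94e-06).

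The 24 h terms of the 36 members were spread over the day. Peaks fell between 18 and 24 h after dawn in 41.7% of them and between 12 and 18 h in 16.7%, while of all genes with a 24 h term 15.9% and 45.4% peaked in these hours. Of those 9597 genes 4625 had a mean intensity of 1000 or more, and the peak times of these bright genes alone were not counted. Between 0 and 6 h lay 9 members, among them Stx5a, Copa, Sec16a, Sec61a1 and Arfgap1. Without CT60 to CT65 the 24 h term was called in 27 members, 21 of them among the 36, so that the 24 h calls rested in part on the pools that stood apart.

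Paralogs and partners were compared through the difference of their log2 intensities within each pool, which sets the shapes over time side by side and not the levels of their probe sets. Of 13 such pairs 6 had unequal 12 h terms and 5 had unequal 24 h terms (limma, adjusted over the 13 pairs). At 12 h the difference between Arfgap3 and Arfgap2 had an amplitude of 0.64 (95% interval 0.47 to 0.81, adjusted p = 2.72e-07), that between Tmed3 and Tmed7 of 0.49 (0.37 to 0.60, adjusted p = 2.11e-08) and that between Sec23b and Sec23a of 0.42 (0.30 to 0.53, adjusted p = 2.72e-07). Gosr2 and Gosr1 differed by 0.22 (0.14 to 0.29, adjusted p = 1.71e-05). In each of these 4 pairs 1 gene swung with the 12 h wave by much more than the other. Smaller differences were found between Sec24d and Sec24c (0.21, adjusted p = 0.0202) and between Arf4 and Arf1 (0.08, adjusted p = 0.0324).

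The pairs Sar1a and Sar1b, Sec24a and Sec24b, Kdelr1 and Kdelr2, Kdelr2 and Kdelr3, Lman1 and Lman2, Arfgap1 and Arfgap2, and Sec16a and Sec16b did not pass at 12 h. The intervals of their differences reached up to 0.18 on the log2 scale, so unequal terms up to that size are not excluded for them. At 24 h Sec16a and Sec16b differed by 0.23 (0.15 to 0.31, adjusted p = 8.3e-05), Arfgap1 and Arfgap2 by 0.17 (0.09 to 0.24, adjusted p = 0.00198), Sec24a and Sec24b by 0.20 (0.10 to 0.30, adjusted p = 0.00449), Sec23a and Sec23b by 0.21 (0.09 to 0.33, adjusted p = 0.0194), and Kdelr1 and Kdelr2 by 0.13 (0.05 to 0.20, adjusted p = 0.0288).

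**Figure D4:**
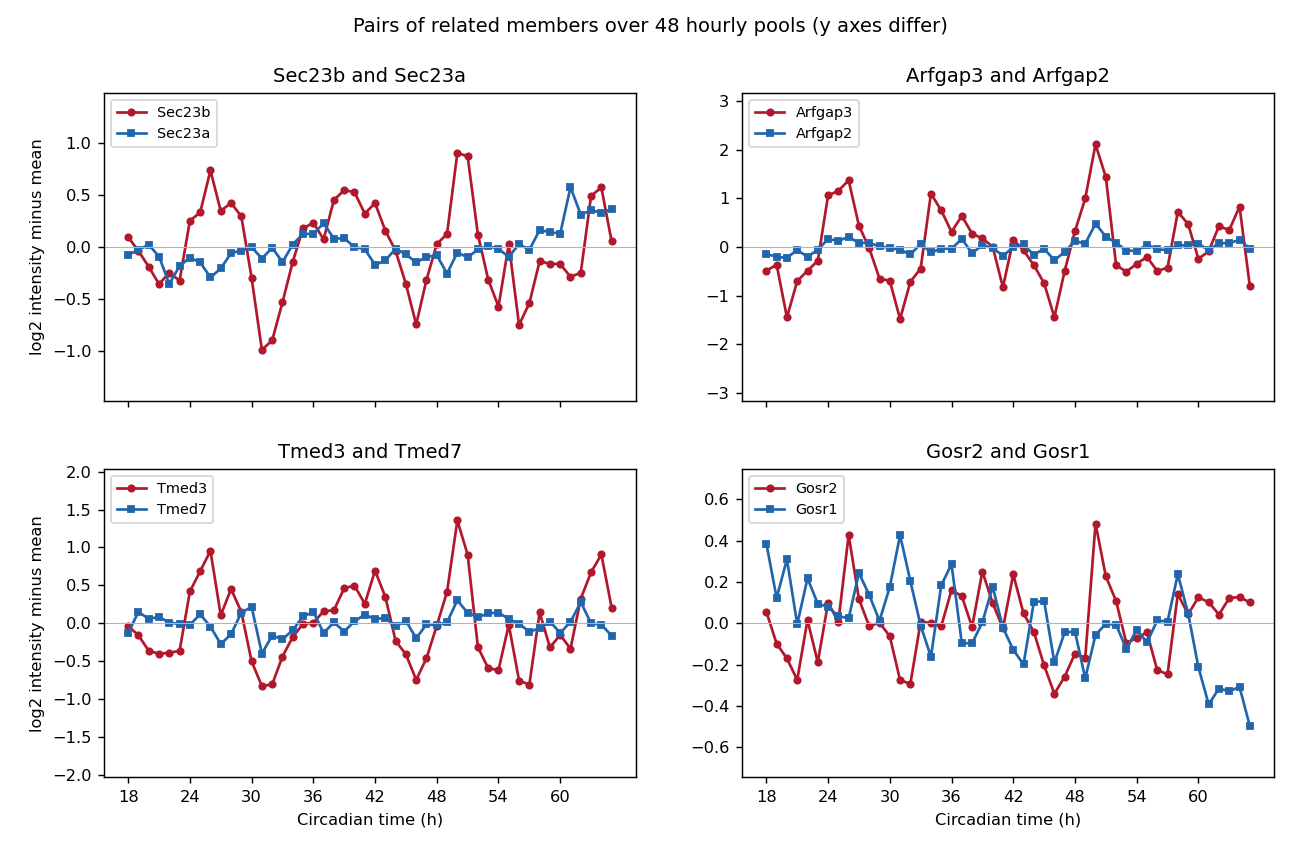
Log2 intensity minus its mean (y axis, scaled for each pair) by circadian time in hours for 4 pairs of related members, each point 1 pool. Sec23b, Arfgap3, Tmed3 and Gosr2 (circles) rise near CT26 and CT50 and fall near CT31 and CT46, while Sec23a, Arfgap2, Tmed7 and Gosr1 (squares) swing less with the 12 h wave.

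Single pools shaped the extremes. The highest value of 16 members (27.1%) was at CT50, where 2.06% of all genes and 3.6% of the bright ones had theirs, and that of 7 members was at CT26. The lowest value of 12 members (20.3%) was at CT31, against 2.78% of all genes and 5.2% of the bright ones. At CT61 lay the lowest value of 16 members (27.1%), but there the bright genes had a like share, 20.8%. The 12 h counts did not rest on 1 of these pools, since leaving out each pool in turn called between 19 and 22 members.

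Levels after dawn and after dusk were compared. The mean of CT24 to CT29 and CT48 to CT53 was set against that of CT36 to CT41 and CT60 to CT65. Dawn was higher in 11 members (18.6%), against 11.4% of all genes and 24.7% of the bright ones. Dusk was higher in 6 (10.2%), against 23.8% and 15.1%. Both shares of the members lay below those of the bright genes. Arfgap1 was higher at dawn by 0.44 ± 0.09 on the log2 scale (adjusted p = 0.000513), Stx5a by 0.40 ± 0.09 (adjusted p = 0.00242) and Ssr1 by 0.27 ± 0.05 (adjusted p = 0.000187). Sec23a was lower at dawn (-0.28 ± 0.05, adjusted p = 5.77e-05), and so was Sar1b (-0.27 ± 0.05, adjusted p = 0.00019). These 5 kept their call without CT60 to CT65, and the other 12 lost it. In that setting Sec24a was the only further member called, lower at dawn by 0.29 (-0.29, adjusted p = 0.014). The lowest pool lay in CT60 to CT65 in 22 members. At CT61 it lay in 16 of them, where 20.8% of the bright genes and 9.49% of all genes had theirs. CT60 and CT62 to CT65 held that of 0 to 2 members each, and of 3.56% to 8.15% of the bright genes. Among the 22 members Sec16a, Sec24c, Sec61a1 and Copa were higher at dawn by 0.33 to 0.48 over all pools. Without CT60 to CT65 these 4 were higher by 0.08 to 0.17. Of the members with the largest 12 h amplitudes, Sec23b (0.10 ± 0.15, adjusted p = 0.627), Tmed3 (0.11 ± 0.18, adjusted p = 0.649) and Arfgap3 (0.56 ± 0.29, adjusted p = 0.126) did not pass. Tmed9, Arfgap2, Spcs1 and Kdelr3 differed by nearly as much without CT60 to CT65 (0.26, 0.16, -0.22 and -0.03), with fewer pools behind the test. The dusk windows of the second cycle are the very pools that stood apart, and their part in these differences was not tested beyond leaving them out.

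**Figure D5:**
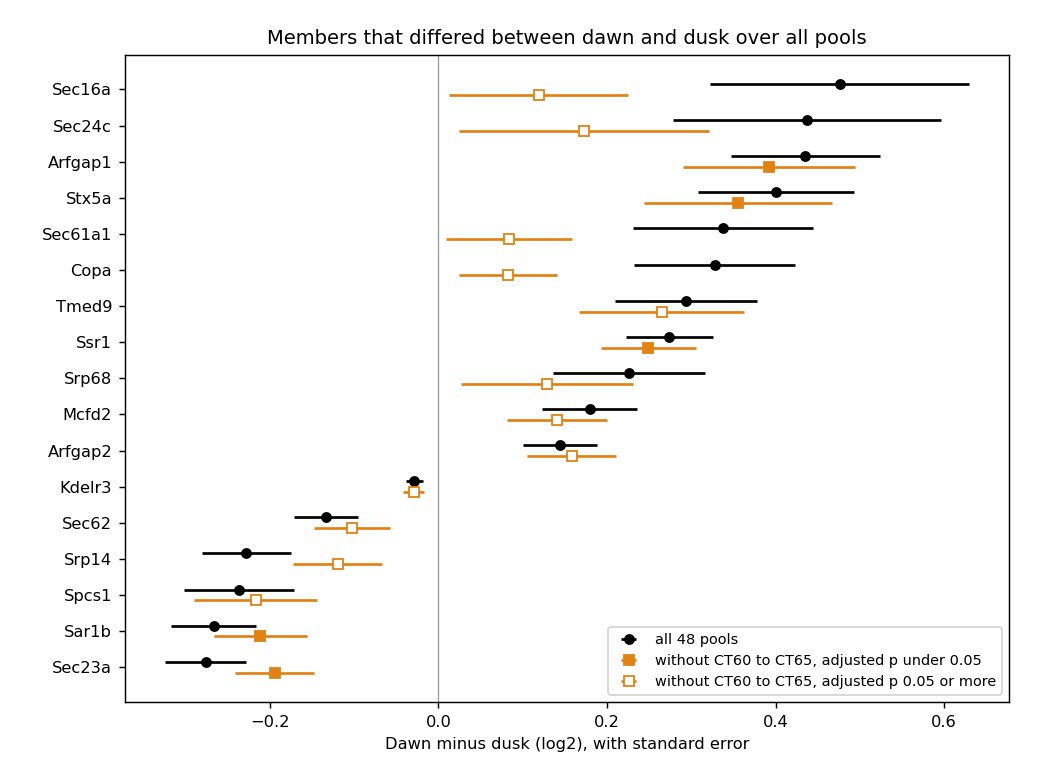
Mean of the dawn windows minus mean of the dusk windows on the log2 scale for the 17 members called over all 48 pools (circles), and the same without CT60 to CT65 (squares, filled where the adjusted p was under 0.05), with standard errors as bars. The squares of Sec16a, Sec24c, Sec61a1 and Copa lie much nearer to 0 than the circles, and those of Arfgap1, Stx5a and Ssr1 do not.

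Between the first and the second cycle the 12 h term differed in 0 of 59 members by limma's interaction test, against 0.011% of all genes. At an unadjusted p under 0.05 it differed in 16 members, a share that was not counted over all genes. The 12 h amplitude of Sec23b was 0.47 in CT18 to CT41 and 0.46 in CT42 to CT65, and that of Tmed3 0.50 and 0.64. Arfgap3 had 1.01 and 0.86, and Cog3 0.34 and 0.17. The test also covers the peak time, which was 2.46 and 3.12 h in Sec23b and 1.14 and 2.20 h in Arfgap3. Of the 20 members with a 12 h term, Spcs3, Sec22b and Bet1 peaked earlier in the second cycle and the others later. Whether these members shifted together was not tested. The 24 h term differed in 13 members (22%), against 8.37% of all genes and 19.5% of the bright ones, a share near that of genes as bright. Among them were Sec31a (adjusted p = 0.000776), Sec24d (0.000827) and Tmed10 (0.00241). All 13 lost the call without CT60 to CT65, when the second cycle holds 18 pools.

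Genes that act beside the members were described from lists of the same pathway. Of 95 such genes 14 had a 12 h term (14.7%) and 57 a 24 h term (60%), shares between those of all genes and of the bright ones. The 14 peaked between 0 and 6 h after dawn and dusk, 6 of them in the first 3 h. In the oligosaccharyltransferase, which attaches sugar chains next to the translocon, Magt1 (0.20 ± 0.03, adjusted p = 1.38e-05) and Ostc (0.31 ± 0.05, adjusted p = 0.000168) had a 12 h term, 2 of 12 genes. Of 9 further translocation genes it was called in Sec11a, a catalytic subunit of the signal peptidase (0.14 ± 0.03, adjusted p = 0.00351). Of 28 tethers and other SNAREs 5 were called, led by Bet1l (0.22 ± 0.03, adjusted p = 0.000117) and Stx18 (0.22 ± 0.04, adjusted p = 0.000206). Of 9 other COPI genes 3 were called, led by Arfip1 and Arf6 (adjusted p = 7.89e-05 and 0.000793), and of 18 genes of ER exit sites 2, Trappc2l and Tfg (adjusted p = 0.018 and 0.0209). Of 16 other cargo receptors Tmed8 alone was called (adjusted p = 0.0476), and of 3 genes of the GET route, which inserts tail-anchored proteins, 0 were called by limma (0 at an unadjusted p under 0.05).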

How the data were processed

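Total RNA of 48 liver pools was measured, 1 array each. The table holds linear intensities, which the authors extracted with GCRMA per the methods, correcting the background and normalizing between arrays. The labels also name MAS5 without a version, and which of them made the table was not tested. A mean under 100 was found in 49.5% of probe sets. Symbols came from the platform annotation, with 34958 probe sets of 1 symbol, 932 of several and 9211 of none. Values were log2 transformed. Terms, windows and cycles were tested in limma 3.58.1 (R 4.3.3) on all 45101 probe sets, with 40 residual degrees of freedom and Benjamini-Hochberg adjustment. Fisher's G-test was computed exactly with Storey q-values. Pairs were tested with the variance prior of the same fit. No 2 arrays were identical. Code was tested on simulated data with known 12 h rhythms. The motifs were counted in Python 3.11.15.

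All 60 members were named, of the pathway lists the 2 called genes of each with the smallest p of the 12 h term, and no others but cell type markers. The members, lists and tests were chosen with earlier results of these data known. Alternatives changed the normalization, scale, pseudocount, probe sets, model, adjustment, windows and pools. Leaving out CT25 or CT61 alone, and CT60 to CT65 in the comparison of cycles, was chosen after seeing the data.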

Additional observations from a re-analysis of the deposited data

Results flagged for a closer look

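The 24 h term of 13 members differed between the first cycle (CT18 to CT41) and the second (CT42 to CT65) by the interaction test in limma. They make up 22% of the 59 members, against 8.37% of all genes and 19.5% of the genes with a mean intensity of 1000 or more. The adjusted p was 0.0397 for Srp14, 0.015 for Srpr, 0.0425 for Srprb, 0.013 for Sec61a1, 0.0376 for Spcs3, 0.000827 for Sec24d, 0.000776 for Sec31a, 0.00241 for Tmed10, 0.00432 for Lman2, 0.0467 for Kdelr2, 0.0122 for Copa, 0.00368 for Cope and 0.0237 for Arf1. In 8 of the 13 the fitted 24 h amplitude was larger in the second cycle, as in Sec31a, with 0.18 ± 0.11 in the first and 0.37 ± 0.09 in the second, and Tmed10, with 0.03 ± 0.07 and 0.24 ± 0.05. In Srprb it was 0.35 ± 0.09 and 0.12 ± 0.16. Without CT61, 9 of the 13 remained, and without CT60 to CT65 none was called by limma (1 member at an unadjusted p under 0.05), with an adjusted p of 0.935 or more for each of the 13. The pools of CT60 to CT65 had the lowest mean correlation with the other arrays, and the part of this in the difference between cycles was not tested further.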

How the results depend on the processing

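The count of members with a 12 h term lay between 18 and 22 under every alternative that kept pools of both cycles, and 14 members were called in each of them. In all of these, and in each cycle alone, every called 12 h term peaked between 0 and 6 h after dawn and dusk, and the median peak was 2.57 to 2.81 h with each pool left out. With each pool left out in turn the counts were 19 to 22 for the 12 h term, 28 (without CT54) to 39 for the 24 h term, 9 to 15 for dawn above dusk and 5 to 7 for dusk above dawn. With 24 pools each, the first cycle alone called 6 members at 12 h, 9 at 24 h, 0 above at dawn and 0 above at dusk by limma (0 and 2 at an unadjusted p under 0.05), and the second alone called 3 at 12 h, 30 at 24 h, 0 above at dawn and 0 above at dusk (3 and 5 unadjusted). Within a single cycle the linear trend of the fit also widens the error of the dawn minus dusk difference. Without CT60 to CT65, dawn was above dusk in 3 members and dusk above dawn in 3, and the 24 h term differed between cycles in 0 (1 unadjusted). Without the trend, dawn was above dusk in 17. With only probe sets of mean intensity 100 or more, so with fewer probe sets tested, 18 members were in the 24 h class of the G-test. For CT60 to CT65 and the trend the cause was not tested.

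The fitted dawn minus dusk difference changed sign in single cases, none of which passed the test there. With the mean over all probe sets of a gene it was 0.0049 in Sec62. In the first cycle alone it was 0.11 in Srp14, -0.0112 in Sec61a1, 0.0662 in Sec62 and 0.0106 in Kdelr3, and in the second cycle alone -0.0555 in Arfgap2. Within a single cycle the difference is fitted beside a linear trend that runs along with the step from dawn to dusk. Its standard error in Srp14 was 0.18 in the first cycle alone and 0.05 over all pools. Window means without a trend kept the direction of the full fit in these single cycles. In Srp14 they were 34430 at dawn and 37170 at dusk. The counts of pairs, between 6 and 8 at 12 h and 4 and 7 at 24 h, stayed within 1.5 times. The residual correlation of neighbouring hours was estimated at -0.07. Signal over background limits Tmed2 and Kdelr3.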
